A study of Gallus gallus with 4 samples.

Results

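Matrix metalloproteinases (MMPs), their inhibitors and the urokinase gene PLAU were examined in the chick chorio-allantoic membrane (CAM), the vascular membrane through which the embryo breathes. Of 10 genes considered, 9 were found on the array by their gene symbol, among 13008 named genes in all. They are the proteases MMP2, MMP7, MMP9, MMP13, MMP16 and PLAU and the inhibitors TIMP2, TIMP3 and RECK, while MMP11 was not analysed here. These 9 genes have 15 probe sets, and each gene is represented by the probe set with the highest mean signal over the arrays. For VEGF CAMs 1, 2 and 3, tissue was excised on day 14 of development, 24 h after a plastic disc carrying 3 µg of human recombinant VEGF-A had been laid on the CAM, at places where new capillaries could be seen. They were set against a control pool, RNA of 3 normal CAMs of day 14 on a single array, which gives no spread between control CAMs and is shared by all 3 comparisons. The sources differ on whether control CAMs carried a disc with solvent, and an effect of the disc itself cannot be told apart from that of VEGF-A.

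MMPs are zinc-dependent enzymes that cut collagens, laminins and other proteins of the extracellular matrix. Most are secreted as inactive precursors, become active once their propeptide is removed, and are blocked by the tissue inhibitors of metalloproteinases (TIMPs). Growing capillaries have to open their basement membrane, and in the chick CAM, heterophils (the avian counterpart of neutrophils) are known to bring in MMP9, and monocytes MMP13.

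The deposited values are linear Affymetrix signals, scaled to the same trimmed mean on all 4 arrays. Over chicken probe sets the median was 15.3, 17.2 and 15.7 for VEGF CAMs 1, 2 and 3, against 19.1 for the control pool. A filter on the mean signal, at 11.1, kept 22616 probe sets and 10505 named genes, and 8 of the 9 genes with 12 of their 15 probe sets. A gene was called when it lay more than 2-fold from the control, in 1 direction, in at least 2 of 3 comparisons. This is the fold part of the study's rule. For higher genes the study also required a present call in the VEGF-A group, which was not applied here. With 1 CAM left out, both others had to pass, so a call that rests on 2 CAMs is lost without either of them. Limma was fitted to all probe sets past the filter, with Benjamini-Hochberg adjustment, and tested the mean log2 ratio. It used the 2 residual degrees of freedom of the VEGF-A arrays and 5.23 prior ones estimated over all these probe sets. It assumed that the control varies as much as the VEGF-A arrays do. The smallest p of an exact permutation test, with 3 arrays on one side and 1 on the other, is 0.25. The ratio of actin signal at the 3' end to that at the 5' end, a sign of RNA quality, was 15.5, 19.7 and 22.9 in VEGF CAMs 1, 2 and 3 and 24.2 in the control pool. In the same order it was 43.2, 58.0, 66.9 and 67.0 for GAPDH and 5.74, 6.65, 7.38 and 8.74 for EF1A. On all 4 arrays the 3' end of these transcripts thus gave several times the signal of the 5' end. Each ratio was lowest in VEGF CAM 1 and highest in the control pool. Their part in the results, also where probe sets of 1 gene differ, was not tested. The epithelial marker EPCAM had signals from 9059 to 17058 on the VEGF-A arrays and of 14941 in the control pool, and CDH5 of endothelium from 1533 to 2757 and of 875. Epithelium and vessels thus gave signal on every array. In such tissue, fewer cells of a type and less RNA per cell cannot be told apart.

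By the 2-fold rule, 2 of the 8 genes past the filter were lower in the VEGF-A CAMs, MMP13 and MMP9, and 0 were higher. Of all 10505 genes, 6.03% were called lower and 5.37% higher. The inhibitors TIMP2 and TIMP3, the gelatinase MMP2 and PLAU were not called, with mean log2 ratios between 0.06 and 0.26. By limma 0 of the 8 genes passed an adjusted p of 0.05, as did 0% of the 22616 probe sets. At an unadjusted limma p under 0.05, 1 of the 8 genes was lower (MMP13) and 0 were higher, against 2.11% of all genes lower and 3.98% higher. The median of the 8 mean log2 ratios was -0.16, and that of all genes -0.07.

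**Figure D1:**
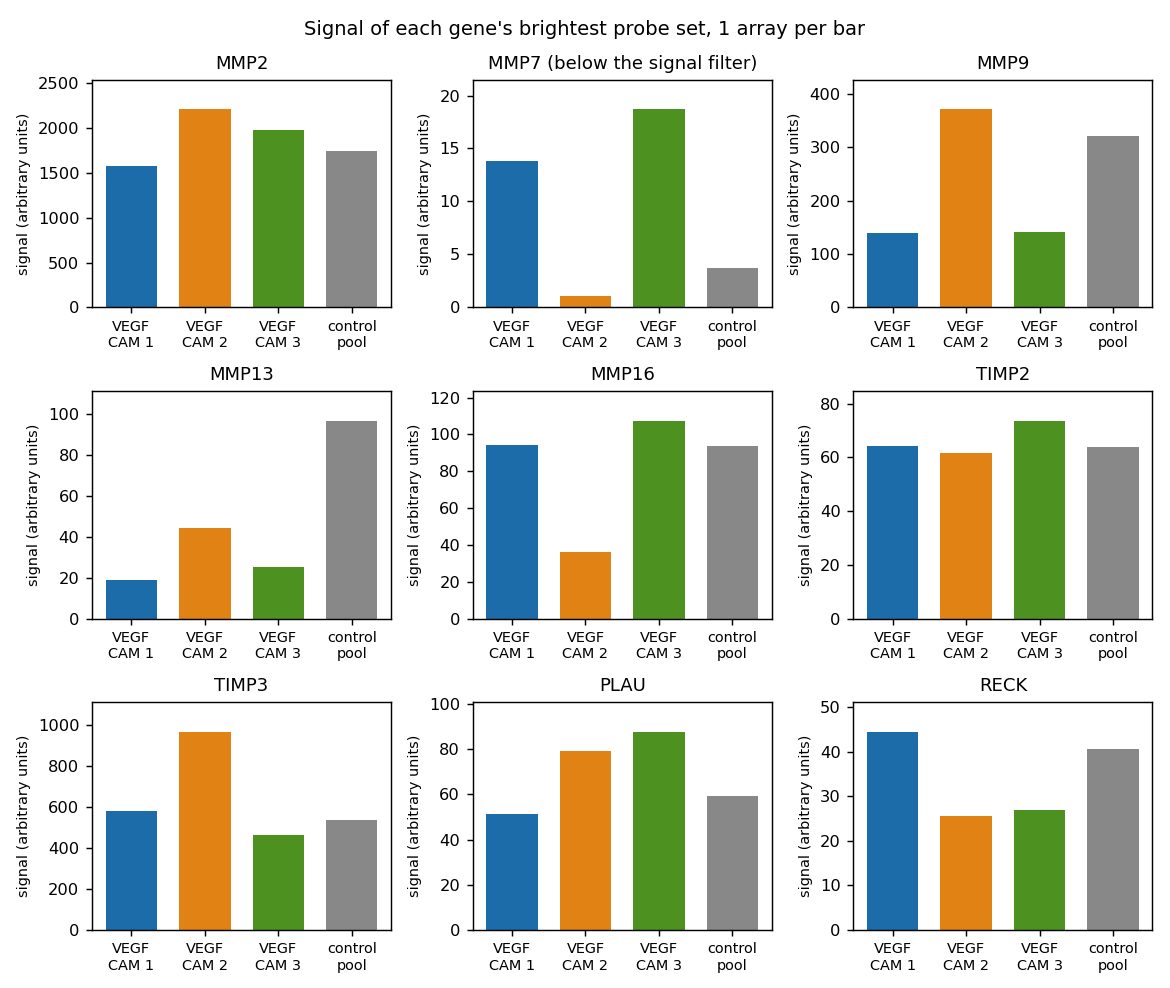
Linear signal (arbitrary units, axis from 0) of the brightest probe set of each of the 9 genes, with 1 bar per array: VEGF CAMs 1, 2 and 3, then the control pool. The bars of MMP13 are lowest in the 3 VEGF-A CAMs (19.1, 44.4 and 25.2, against 97.0 in the control pool), while MMP9 in VEGF CAM 2 (371) stands above the control pool (320).

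MMP13, collagenase 3, cuts fibrillar collagens. Its signal was 19.1, 44.4 and 25.2 in VEGF CAMs 1, 2 and 3, against 97.0 in the control pool. All 3 VEGF-A CAMs lay more than 2-fold below the control, with VEGF CAM 1 the lowest and VEGF CAM 2 nearest to it. The log2 ratios were -2.35, -1.13 and -1.94, with a mean of -1.81 ± 0.62 (SD, n = 3 CAMs), which is 3.50-fold lower. The limma standard error was 0.55, the 95% interval ran from -3.10 to -0.51, and the adjusted p was 0.69 (unadjusted p = 0.013). Only 1.63% of the genes past the filter had a lower mean log2 ratio, and 1.29% were more than 2-fold lower in all 3 comparisons as MMP13 was. The gene stayed below the control on each scaling. With all 3 log2 ratios below 0, leaving out 1 CAM could not change that. The size of the difference changed with the treatment of dim signals. With an offset of 32 added to every signal the mean log2 ratio was -1.09, and VEGF CAM 2 alone no longer passed 2-fold (-0.76).

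MMP9, gelatinase B, cuts denatured collagen and collagen IV. Its signal was 139, 371 and 142 in VEGF CAMs 1, 2 and 3, against 320 in the control pool. VEGF CAMs 1 and 3 lay more than 2-fold below the control, whereas VEGF CAM 2 lay above it and was 2.67 times the lowest VEGF-A array. The log2 ratios of -1.21, 0.21 and -1.18 averaged -0.72 ± 0.81 (SD, n = 3 CAMs), with a limma standard error of 0.58 and an adjusted p of 0.86. The call was lost without VEGF CAM 1 (mean log2 ratio -0.48), without VEGF CAM 3 (-0.50), and after centring the arrays on their medians (-0.47), while without VEGF CAM 2 the mean was -1.19 (limma adjusted p = 0.32). The losses without VEGF CAM 1 or VEGF CAM 3 follow from the rule, since both remaining CAMs must then pass 2-fold. The summed signal of 3 heterophil markers past the filter was 253, 480 and 372 in VEGF CAMs 1, 2 and 3 and 329 in the control pool. Of these, the lysozyme LYG2 was at 56.9, 240 and 98.7 in the VEGF-A CAMs and at 138 in the control pool, above the control in VEGF CAM 2 alone. The other markers had other patterns, with TNFAIP2 at 166, 207 and 252, against 165, and SERPINB1 at 29.8, 33.3 and 20.8, against 26.6. The rest of the heterophil list, MPO and CSF3R among them, was below the filter or not on the array under that name. The sum of 9 macrophage markers was 2697, 3818 and 5169 in VEGF CAMs 1, 2 and 3 and 4690 in the control pool. Of these 9, 1 was called higher (MRC1) and 0 lower, and the part of either cell type in the MMP9 and MMP13 values was not tested. Of the other marker lists, 0 of 7 smooth muscle and 0 of 5 osteoclast and chondrocyte genes were called. Of 11 epithelial genes 1 was lower (KRT5), and 2 of 6 red blood cell genes were higher (SLC4A1 and HBZ). Beside these counts, 6.03% of all genes were called lower and 5.37% higher. HBZ was at 14.6, 23.3 and 10.7 in VEGF CAMs 1, 2 and 3, against 3.78, and passed the filter only with its VEGF-A signals.

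MMP2, gelatinase A, is secreted by many stromal cells and shares substrates with MMP9. Its signal was 1578, 2209 and 1979 in VEGF CAMs 1, 2 and 3, against 1746 in the control pool. The control lay between the VEGF-A arrays, and the farthest of them was 1.27 times the control. The mean log2 ratio was 0.12 ± 0.25 (SD, n = 3 CAMs), with a 95% limma interval from -0.57 to 0.82 and an adjusted p of 0.93. On the deposited scaling, a change of 2-fold in the mean thus lay outside the interval in both directions, while log2 ratios from -0.57 to 0.82 lay within it. After centring on the array medians the mean was 0.38, and no interval is given for that scaling.

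MMP16, a membrane-type MMP that can activate the MMP2 precursor, was measured by 3 probe sets past the filter, and they differed. The brightest read 94.2, 36.2 and 108 in VEGF CAMs 1, 2 and 3, against 93.8 in the control pool. VEGF CAM 2 alone was low there, at a log2 ratio of -1.37, and VEGF CAMs 1 and 3 were close to the control (0.01 and 0.20). The second read 43.6, 33.3 and 48.8 in the VEGF-A CAMs, against 115 in the control pool, so that all 3 lay more than 2-fold below the control. Its mean log2 ratio was -1.48 ± 0.28 (SD, n = 3 CAMs), with a limma standard error of 0.40 and an adjusted p of 0.69 (unadjusted p = 0.0075). With the offset of 32 its log2 ratios were -0.96, -1.17 and -0.87, and it was no longer called. A further one gave signals of 16.9, 31.7 and 29.2 in VEGF-A CAMs, against 42.7 in the control pool, with a mean of -0.77. By both of these dimmer probe sets every VEGF-A CAM was below the control, and by the brightest, whose mean of -0.39 stands for the gene, 1 of 3 was. Without VEGF CAM 2 that mean turned to 0.10.

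MMP7, matrilysin, is a small MMP of epithelia. Its single probe set was below the filter, with signals of 13.8, 1.09 and 18.7 in VEGF CAMs 1, 2 and 3, against 3.77 in the control pool. VEGF CAMs 1 and 3 were above the control and VEGF CAM 2 below it. Without the filter it was called higher by the 2-fold rule, with a limma adjusted p of 0.95. The ending of its name (_s_at) marks probe sets that can match transcripts of more than 1 gene.

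TIMP2 blocks most MMPs, and in mammals also helps membrane-type MMPs to activate the MMP2 precursor. Its signal was 64.4, 61.8 and 73.7 in VEGF CAMs 1, 2 and 3, against 63.7 in the control pool. The arrays overlapped, and the spread was the narrowest among the 8 genes, with a mean log2 ratio of 0.06 ± 0.13 (SD, n = 3 CAMs) where the median gene past the filter had an SD of 0.33. The 95% limma interval ran from -0.79 to 0.91 (adjusted p = 0.97). A second probe set was below the filter, at 0.56 to 6.64 in the VEGF-A CAMs and 0.71 in the control pool.

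TIMP3 is held in the matrix and, in human cells, can also keep VEGF-A from its receptor KDR. Its signal was 581, 970 and 461 in VEGF CAMs 1, 2 and 3, against 535 in the control pool. VEGF CAM 2 stood above the others at 1.81 times the control, and the other two lay on either side of it. The mean log2 ratio was 0.25 ± 0.55 (SD, n = 3 CAMs, limma adjusted p = 0.91), and -0.05 without VEGF CAM 2. MMP2, MMP9, MMP13 and TIMP3 had their highest VEGF-A signal in VEGF CAM 2, and the brightest probe sets of MMP16, TIMP2 and RECK their lowest. VEGF CAM 2 also had the lowest sum of 15 blood endothelial markers among the VEGF-A CAMs (8040, against 13025 and 13881 in VEGF CAMs 1 and 3 and 5969 in the control pool) and the highest sum of 10 fibroblast markers (51999, against 37022 and 44410, and 28563 in the control pool). Its sums of epithelial markers (54880, against 35986 and 44272, and 49168 in the control pool) and red blood cell markers (37834, against 23955 and 31499, and 27213) were also the highest. The red blood cell sum was mostly that of the globins HBA1 and HBAD (20192 and 16418 in VEGF CAM 2). SLC4A1, EPB42 and TAL1 were instead lowest in VEGF CAM 2 among the VEGF-A CAMs (957, 142 and 101), while the globin HBZ was highest there. The sums of heterophil markers and of osteoclast and chondrocyte markers were highest in VEGF CAM 2 too. The sum of smooth muscle markers was lowest in VEGF CAM 2, and that of macrophage markers lay between. The part of these sums in the values of the proteases was not tested.

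**Figure D2:**
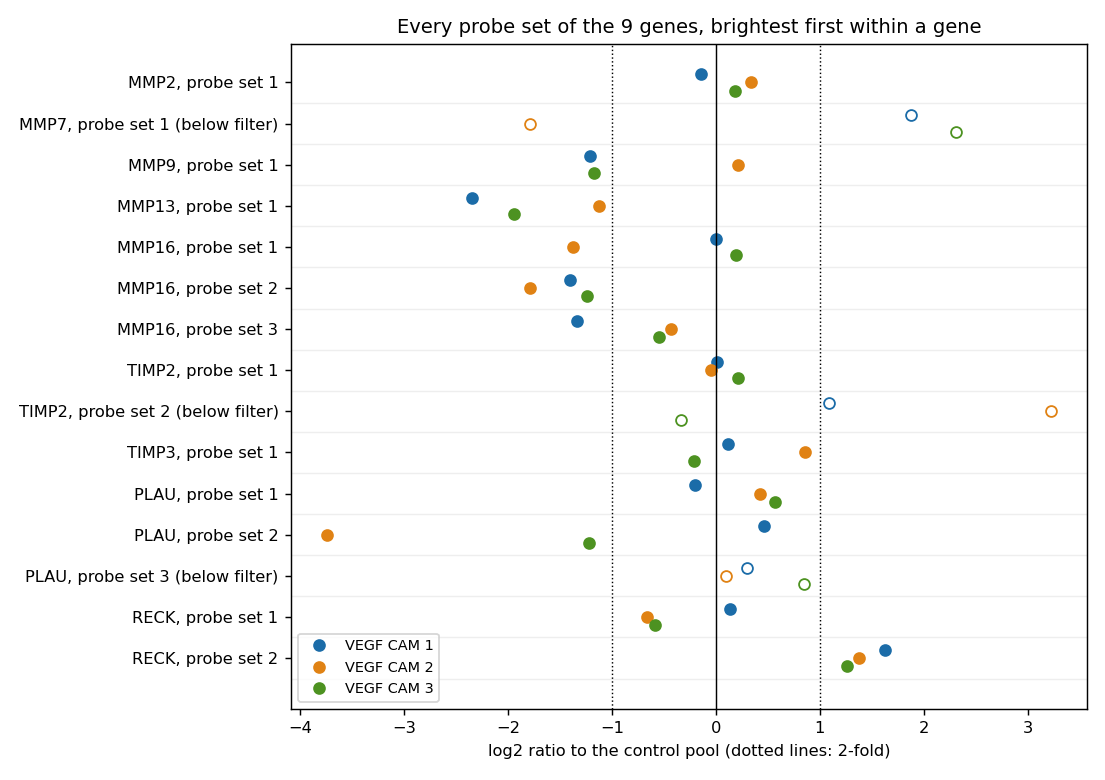
Log2 ratios against the control pool (horizontal axis) for all 15 probe sets of the 9 genes, with 1 point per CAM and open points for probe sets below the signal filter. MMP13, the second probe set of MMP16 and the second of RECK lie past the dotted 2-fold lines in all 3 CAMs, the first 2 below and RECK above.

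PLAU, the urokinase-type plasminogen activator, makes plasmin, which in turn can activate MMP precursors. Its brightest probe set read 51.5, 79.2 and 87.8 in VEGF CAMs 1, 2 and 3, against 59.1 in the control pool. VEGF CAM 1 was below the control and the other two above it, all within 2-fold, with a mean log2 ratio of 0.26 ± 0.41 (SD, n = 3 CAMs, limma adjusted p = 0.90). A second probe set read 26.6, 1.44 and 8.26, against 19.3, and was called lower on dim signals, with an SD of 2.12 between the log2 ratios of the CAMs. With the offset its mean of -1.50 became -0.26 and it was no longer called. One more, below the filter, was at 1.58, 1.37 and 2.32, against 1.28.

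RECK is an inhibitor anchored in the cell membrane that restrains MMP2, MMP9 and MT1-MMP in mammals. Its brightest probe set, of the kind that can match more than 1 gene, read 44.5, 25.5 and 27.0 in VEGF CAMs 1, 2 and 3, against 40.5 in the control pool. The mean log2 ratio was -0.37 ± 0.44 (SD, n = 3 CAMs, limma adjusted p = 0.88), with VEGF CAMs 2 and 3 below the control. The other probe set, nearly as bright on average (31.5, against 34.4), read 42.9, 36.1 and 33.3, against 13.9. Over the VEGF-A CAMs alone it was the brighter of the pair (mean signal 37.4, against 32.3). All 3 VEGF-A CAMs were more than 2-fold above the control there, with log2 ratios of 1.63, 1.38 and 1.26 and a mean of 1.42 ± 0.19 (SD, n = 3 CAMs, limma adjusted p = 0.69, unadjusted p = 0.017). With the offset that mean was 0.60 and not called. The direction of RECK in these arrays therefore depends on which probe set is read. Over the 12 probe sets of the 9 genes past the filter, 4 were called lower and 1 higher, against 9.25% lower and 6.79% higher of all 22616. Of the 3 genes with more than 1 such probe set, 2 had means of opposite sign.

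**Figure D3:**
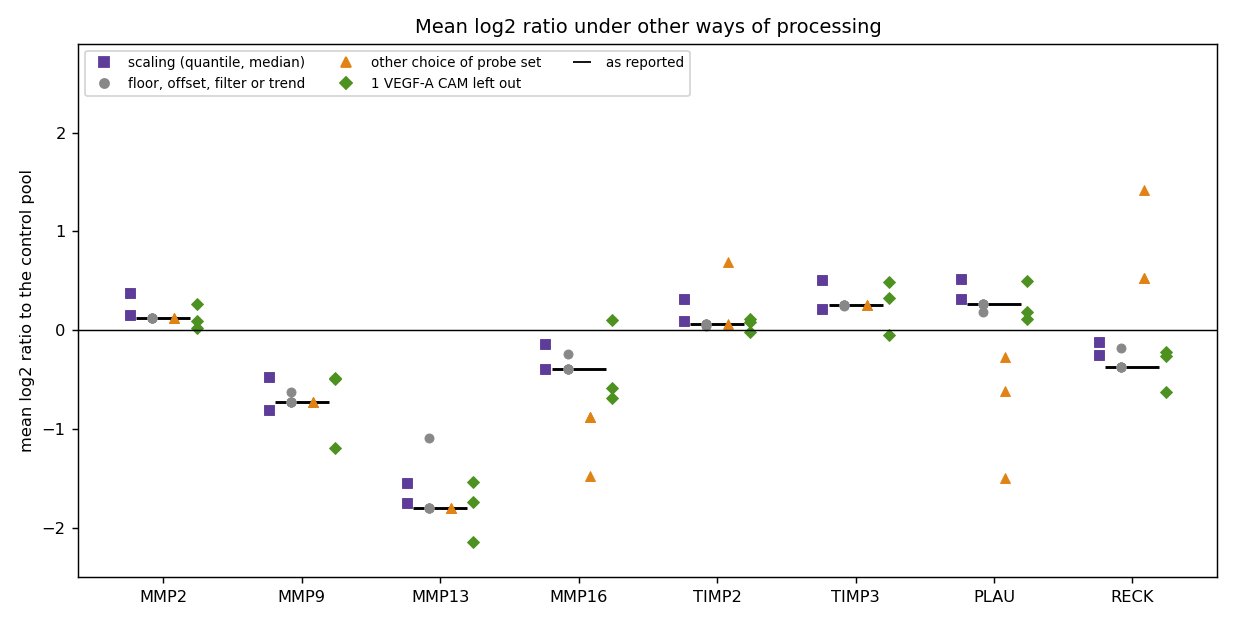
Mean log2 ratio of VEGF-A to control (vertical axis) for the 8 genes past the filter, as reported (black line) and under other scalings, floors, filters, choices of probe set or with 1 CAM left out (symbols). MMP13 and MMP9 stay below 0 throughout, and MMP2 above it, whereas PLAU and RECK cross 0 with the choice of probe set. MMP13, MMP9 and MMP2 have a single probe set each, so that choice cannot move them.

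The wider MMP family was read next. In the RefSeq gene order of the chicken, MMP13, MMP10, MMP3, MMP1, MMP27 and MMP7 are 6 neighbouring protein-coding genes of chromosome 1. Of these, 4 passed the filter, all with a mean log2 ratio below 0 and 2 of them called lower, beside 6.03% of all genes called lower. MMP10, a stromelysin by name, was at 98.2, 112 and 130 in VEGF CAMs 1, 2 and 3, against 226 in the control pool. All 3 were below the control and VEGF CAMs 1 and 2 more than 2-fold, with log2 ratios of -1.20, -1.02 and -0.80 (limma standard error 0.35, adjusted p = 0.71). Its call was lost after centring on the array medians and with the offset of 32. It was also lost without VEGF CAM 1 and without VEGF CAM 2, which follows from the rule. MMP27 read 17.3, 24.1 and 14.3, against 29.0, and MMP3 a dim 3.29, 10.5 and 27.0, against 14.9. MMP27 thus lay below the control in every CAM and MMP3 on both sides of it, neither being called. Of 7 MMP genes past the filter on other chromosomes, MMP9 alone was called, and their means ran from -0.72 to 0.30, with 5 of the 7 below 0. Below the control in all 3 CAMs were 3 of the 4 neighbours and 2 of these 7. Of all genes 55.0% had a mean below 0, and 29.8% were below the control in all 3 CAMs. Whether the neighbours differ from the other MMP genes was not tested.

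**Figure D4:**
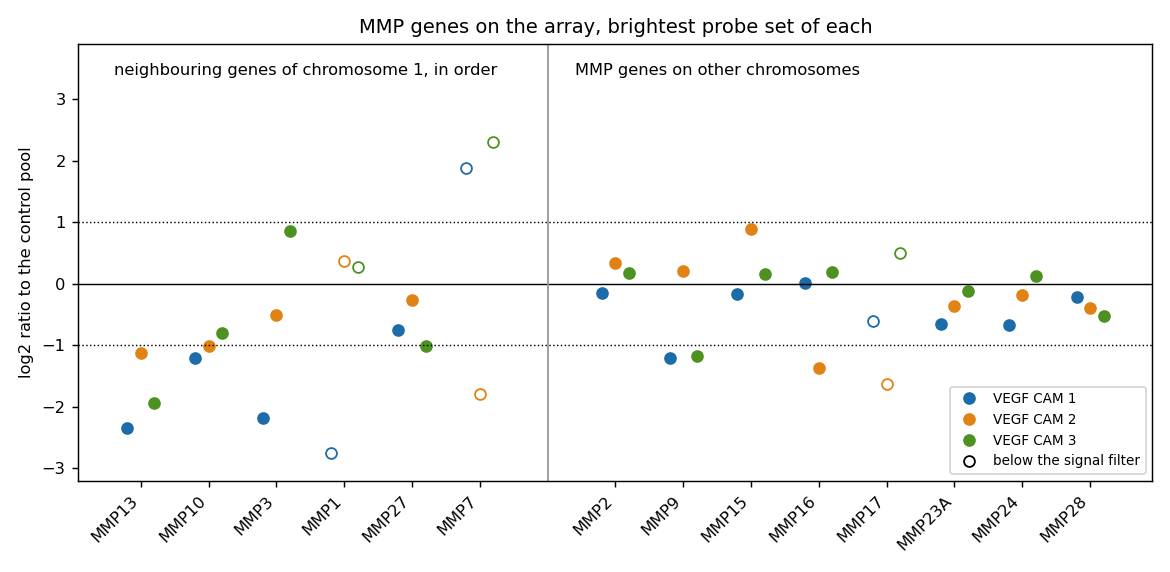
Log2 ratios against the control pool (vertical axis), 1 point per VEGF-A CAM, for 14 MMP genes at their brightest probe set, with the 6 neighbours of chromosome 1 in gene order on the left and 8 others on the right. Open points are below the signal filter. MMP13 and MMP10 lie below 0 in every CAM, and the points of MMP2 are close to 0.

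Of 17 other MMP and TIMP genes listed, 9 were on the array under that name and 7 passed the filter. Of these 7, 1 was called lower (MMP10) and 0 higher, beside 6.03% and 5.37% of all genes. MMP28, epilysin, had log2 ratios of -0.21, -0.39 and -0.53 and was not called. MMP23A was not on the list, which held MMP23B, and was added after its values were seen. Its brightest probe set had a mean of -0.38. Further ones past the filter had means of 0.004 and -0.20, with VEGF CAM 2 above the control in each. In the plasminogen system and the serpins, 13 genes were measured and 0 were called in either direction, with a median of -0.10. In so few genes, 0 calls are close to the shares of all genes. SERPINB2 and SERPINE2, inhibitors of plasminogen activators, had their highest values in VEGF CAM 2, at log2 ratios of 0.24, 1.94 and 0.45 and of -0.11, 1.06 and -0.07. Without VEGF CAM 2 the mean of SERPINB2 was 0.35, against 0.88 with it. S100A10, a partner of annexin A2 that binds plasminogen, had a mean of -0.55 (-0.36 without VEGF CAM 1), and SERPINB5 of -1.07 on dim signals. PLAT, the tissue-type activator, was at -0.10.

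Among 24 measured ADAM and ADAMTS proteases, relatives of the MMPs, 4 were called lower and 0 higher, beside 6.03% and 5.37% of all genes, and the median was -0.02. The lower calls numbered 1 without VEGF CAM 1, 2 without VEGF CAM 2, 1 without VEGF CAM 3, 1 with the offset of 32 and 7 without a filter. Without 1 CAM both others had to pass 2-fold, so calls resting on 2 CAMs are then lost by the rule. ADAMTS5, an aggrecanase, read 140, 73.2 and 31.6 in VEGF CAMs 1, 2 and 3, against 179 in the control pool. ADAMTS18 was at 29.2, 53.3 and 28.1, against 72.8, and ADAMTS20 at 6.50 to 16.4, against 24.3. The CAMs were all below the control for these 3 genes, with mean log2 ratios of -1.38, -1.05 and -1.36 (limma adjusted p from 0.83 to 0.86). The values of ADAMTS20 are dim. ADAMTS20 passed the filter only with its control signal counted, so its lower call lends no support to a direction. As means of all probe sets of the gene, ADAMTS18 was at -0.11 and ADAMTS20 at -0.04, and ADAMTS5 was at -0.82 without VEGF CAM 3. The other call, ADAMTS14, was dim and above the control in VEGF CAM 2 (log2 ratio 1.30). ADAMTS3 had a mean of -1.21, with VEGF CAM 2 at -3.09, and of -0.27 without that CAM. Of 20 activators, inducers and surface partners of MMPs, 1 was called higher (ETS2) and 2 lower (FOS and CD9), with a median of 0.01. All 3 calls were lost with the offset of 32 and without VEGF CAM 2, the higher call without VEGF CAM 1 and both lower calls without VEGF CAM 3. ETS2, a transcription factor that acts on MMP promoters in mammals, was at 25.5, 24.4 and 8.69, against 5.50, and FOS, a subunit of the AP-1 factor, at 21.8, 1.18 and 7.08, against 21.0. Both are dim, and neither passed limma (adjusted p = 0.85 and 0.87). FOS passed the filter only with its control signal counted, and ETS2, at 5.50 in the control pool, only with its VEGF-A signals. Their calls thus lend no support to a direction. Without VEGF CAM 2 the mean of FOS was -0.76, against -1.89 with all CAMs. CD9 was brighter, at 255, 164 and 182 in VEGF CAMs 1, 2 and 3, against 390 in the control pool. Its mean log2 ratio was -0.98 (limma adjusted p = 0.75). TGFB1 and LRP1 had means of -1.23 and -1.01 on dim signals, but of -0.32 for TGFB1 without VEGF CAM 2 and of -0.51 for LRP1 without VEGF CAM 1.

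Genes for matrix proteins that MMPs cut were mostly above the control. Of 24 measured, 9 were called higher and 0 lower, beside 5.37% and 6.03% of all genes. Their median log2 ratio was 0.84, 0.83 and 0.76 in VEGF CAMs 1, 2 and 3, beside a median of -0.07 for the mean log2 ratios of all genes. COL5A2, a chain of collagen V, was at 3118, 2084 and 2265 in VEGF CAMs 1, 2 and 3, against 1006 in the control pool. LAMA4, a laminin chain of vessel basement membranes, was at 226, 214 and 137, against 71.7. NID2, which links laminin to collagen IV, was at 72.8, 48.4 and 50.5, against 16.0. All 3 VEGF-A CAMs were above the control for these genes, with mean log2 ratios of 1.28, 1.39 and 1.82 and limma adjusted p values of 0.65, 0.69 and 0.65. The sizes depended on the probe set for LAMA4, at 0.04 when all its probe sets were averaged, and for COL5A2, at 2.71 over those past the filter and 4.14 at the second brightest. NID2 was at 0.88 with the offset of 32. COL6A3 had a mean of 1.44, and of 2.39 over all its probe sets. At an unadjusted limma p under 0.05, 15 of the 24 were higher and 0 lower, against 3.98% and 2.11% of all genes. As the mean of all probe sets of each gene, the median of these genes was 0.17 and 5 were called higher, and without VEGF CAM 3 the count was 5. The list was written with results of these arrays known and is no independent evidence of its direction. Of 15 blood endothelial markers 12 were called higher and 0 lower. The paper reports many of them, such as TEK, TIE1, KDR and CDH5, as induced on these same arrays. That count is thus no independent evidence either. Of 10 fibroblast markers 1 was called higher (COL1A1) and 1 lower (PDGFRA). PDGFRA was dim, at 7.53, 18.4 and 5.44 in VEGF CAMs 1, 2 and 3, against 21.9 in the control pool. It passed the filter only with its control signal counted. COL1A1, COL1A2, COL3A1, DCN and LUM are on the fibroblast and the matrix list. The other 5 fibroblast markers summed to 3518, 4964 and 3158 in VEGF CAMs 1, 2 and 3, against 3497 in the control pool, so that VEGF CAM 3 lay below it, and the part of either cell type was not tested.

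**Figure D5:**
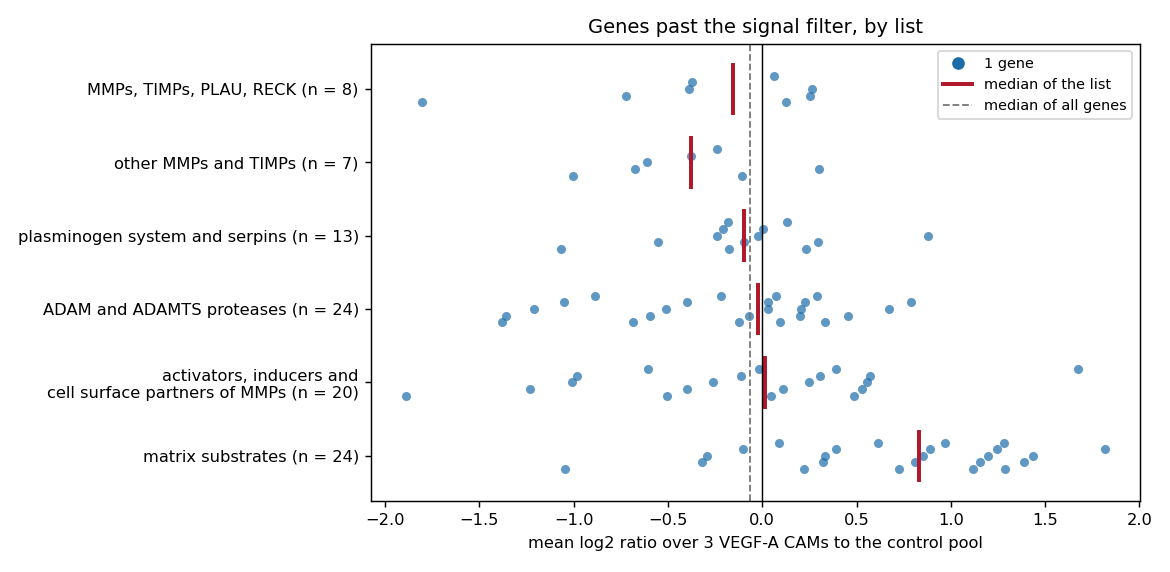
Mean log2 ratio over the 3 VEGF-A CAMs to the control pool (horizontal axis), with 1 point per gene past the signal filter and the median of each list in red. The dashed line is the median of all genes (-0.07). The medians of the protease lists lie near or below it, while the matrix genes have a median of 0.83.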

How the data were processed

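The authors deposited 1 linear intensity for each probe set of each array, without logarithm. GCOS 1.2 is named in the submitters' processing notes. How the software summarised probes is not given in the sources used here. Detection calls were not used here, and a filter on low mean signals (percentile 40) took their place. With 4 arrays the precision is limited, and 0 value columns were left out. Log2 signals were fitted with limma 3.58.1 under R 4.3.3 (variance trend, prior degrees of freedom 5.23) and drawn with matplotlib 3.10.9 (Python 3.11.15). P-values measure the spread of VEGF-A CAMs only, moderated over all probe sets past the filter. The functions were run on simulated data, where only the mean fitted size of planted changes was checked, not the calls. The platform table gave a single symbol to 27166 chicken probe sets, several to 177 and none to 10350. The symbols of all 9 genes are those of RefSeq (GRCg7b), which was used for names and gene order only. The genes, the 5 lists around them, the 8 marker lists and the tests were chosen with earlier results of these data known. Named from each list around them are up to 4 genes past the filter with the largest mean change, beside the 9 genes themselves. Others (such as PLAT, CD9, MRC1, KRT5, PDGFRA and LYG2) were picked after their values were seen.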

Additional observations from a re-analysis of the deposited data

How the results depend on the processing

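MMP13 and MMP9 had a mean log2 ratio below 0, and MMP2 above 0, under all alternatives that gave them a value. Each has a single probe set, so choices of probe set could not move these means. The floor, the filters and the limma trend left them unchanged too. MMP13 was called lower under all those alternatives. With 1 CAM left out this followed from all 3 CAMs lying past 2-fold. The count of called genes changed with MMP9. Of the 8 genes past the filter 2 were called lower, and 1 with arrays centred on the median, which raised the median gene by 0.25. Leaving out 1 CAM gave 1 to 2. The 0 called higher became 1 without a filter (MMP7) and 1 with the second brightest probe set (RECK), an alternative chosen after seeing the data. The mean of PLAU (0.26) turned to -0.27 over all its probe sets, -0.62 over those past the filter and -1.50 at the second brightest. That of RECK (-0.37) turned to 0.53 over all probe sets, 0.53 over those past the filter and 1.42 at the second brightest. Signs also turned with 1 CAM left out, for MMP16, TIMP3 and SERPINE2 without VEGF CAM 2, for TIMP2 without VEGF CAM 3, and for MMP3 and SERPINB5 without VEGF CAM 1. The means then ran from -0.68 to 0.10 for MMP16, from -0.014 to 0.11 for TIMP2, from -0.047 to 0.49 for TIMP3, from -1.34 to 0.18 for MMP3, from -2.03 to 0.094 for SERPINB5 and from -0.091 to 0.50 for SERPINE2. Over all probe sets, 1535 were called higher and 2092 lower. These counts were 2418 and 1213 after centring on the median, 245 and 232 with the offset of 32, 4565 and 6804 without a filter, and 703 and 730 with the filter at the 60th percentile. Without 1 CAM, when both others must pass 2-fold, they ran from 886 to 1027 and from 915 to 1047. Limma passed 0 probe sets and, without 1 CAM, 0 to 1. The cause of these shifts was not tested, beyond the fewer CAMs, probe sets or genes that each alternative uses. No paired analysis was possible because the control is a single pooled array.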
